A study of Mus musculus with 12 samples.

Results

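The genes described here are the Janus kinases (JAKs) and the signal transducers and activators of transcription (STATs) of macrophages and osteoclasts. They were chosen by gene symbol, with earlier results of these data known, and are the kinases Jak1, Jak2, Jak3 and Tyk2 and the transcription factors Stat2, Stat3, Stat5a, Stat5b and Stat6. The deposited table held 54532 genes, of which 11335 passed the filter on low values, and all 9 members passed it. RNA was sequenced from mouse bone-marrow-derived macrophages and from osteoclasts, the multinucleated bone-resorbing cells that form from such macrophages under RANKL, each without and with LPS, the lipopolysaccharide of bacterial cell walls. There were 4 groups of 3 libraries, all from cells of wild-type mice whose femur and tibia marrow was expanded with CMG, a source of M-CSF. The untreated macrophage group was collected at day 5 of the culture without RANKL, and the LPS-treated macrophage group had LPS at 100 ng/mL for 3 h at that day. The untreated and LPS-treated osteoclast groups differed in the same way and had RANKL as well, at 100 ng/mL per the labels' sample source and as a range ending at that dose per the labels' protocol. The labels do not say how many mice were used, whether marrow was pooled or whether replicates came from separate cultures, so p-values measure only the spread between these libraries. Values are FPKM, read fragments per kilobase of exon length after division by a factor of each library, and so can be set side by side between genes.

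A JAK is bound to the inner part of a cytokine receptor that has no kinase of its own. When the cytokine joins the receptor chains, the JAKs phosphorylate each other and the receptor, and STATs that dock there are phosphorylated, pair up and enter the nucleus to switch on genes. In macrophages the type I interferons made after LPS act through Jak1 and Tyk2, and Stat2 with Irf9 forms part of the ISGF3 complex that binds interferon-stimulated genes at the ISRE. Interleukins 6 and 10 act mainly through Stat3, GM-CSF through Jak2 and the Stat5 pair, and interleukins 4 and 13 through Stat6. STAT pairs other than ISGF3 bind the GAS motif.

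The start of Stat2 is printed first because it was the sole member promoter with a match to either motif, and that of Socs1 because this induced inhibitor carries overlapping matches. RefSeq promoters of build GRCm38.p6, from 250 bases before to 50 after the start, were available for all 9 members and searched on both strands for GAAANNGAAA (the ISRE core, TTTCNNTTTC on the other strand) and TTCNNNGAA (GAS, its own reverse). The capitals mark the matches. The Stat2 stretch is chr10:128270248-128270497, plus strand, and its match begins 222 bases before the RefSeq start. The Socs1 stretch is chr16:10785584-10785639, minus strand, with 2 overlapping matches that begin 83 and 77 bases before the start.
Stat2: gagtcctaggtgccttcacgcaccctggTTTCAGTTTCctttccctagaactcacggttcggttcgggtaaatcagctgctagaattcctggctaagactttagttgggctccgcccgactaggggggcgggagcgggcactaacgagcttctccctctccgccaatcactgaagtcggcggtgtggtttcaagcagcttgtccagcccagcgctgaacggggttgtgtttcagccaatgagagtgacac
Socs1: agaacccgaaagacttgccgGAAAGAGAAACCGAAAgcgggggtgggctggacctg
The ISRE core was thus in the windows of 1 of 9 members and GAS in those of 0 of 9, while the ISRE core was in those of 3.99% of all 27025 genes with a promoter and GAS in those of 9.55%. Among 14 genes listed as ISGF3 targets or partner, 11 had a promoter in the table and 7 of these held the ISRE core. A match is a description of the letters in this window and was not measured as a binding site.

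The labelled cell types were checked against marker genes. The 9 osteoclast markers, among them the protease Ctsk and the phosphatase Acp5, summed to between 29058 and 32044 FPKM in the osteoclast libraries and between 16.3 and 28.9 FPKM in the macrophage libraries. The 6 macrophage markers summed to between 1364 and 1694 FPKM in macrophages and between 346 and 367 FPKM in osteoclasts, where Csf1r, the M-CSF receptor that osteoclasts also carry, made up most of the sum. Stromal markers summed to between 26.0 and 36.6 FPKM in macrophages, with Col1a1 at 17.4 to 23.2 FPKM, and to at most 1.01 FPKM in osteoclasts. T and NK cell markers summed to at most 0.117 FPKM, with Cd3d, Cd3g, Cd8a and Ncr1 at 0 in every library. Dendritic cell markers reached 5.96 FPKM and granulocyte markers 11.8 FPKM in LPS-treated macrophages, and B cell and mast cell markers stayed at or under 1.14 FPKM. Between 14875560 and 19278653 reads per library could be recovered from the FPKM values.

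In untreated macrophages Stat6 was the most abundant member and Jak1 the next. Stat6, the factor of the interleukin 4 and 13 response, stood at 51.0, 51.5 and 52.4 FPKM in replicates 1 to 3. Jak1, the kinase shared by most of these receptors, stood at 36.1, 37.0 and 36.3 FPKM. Below them came Stat3, Jak2, Stat2, Stat5b and Tyk2, between 7.52 and 11.2 FPKM. Jak3, the kinase of receptors with the common gamma chain, and Stat5a were lowest, with 4.55 to 5.34 and 2.91 to 3.58 FPKM. Neighbours in this order had separate libraries except for Stat5b and Tyk2, which overlapped. The lowest member in any library still rested on 133 recovered reads (Jak3, untreated osteoclast replicate 2), so none of the 9 was near the limit of detection.

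In untreated osteoclasts the members stood lower than in untreated macrophages, apart from Tyk2. Limma called 8 of the 9 genes as lower and 0 as higher, where 39.0% and 38.8% of all genes tested were called lower and higher. In bulk RNA, fewer cells that express a gene and less RNA of it per cell cannot be told apart. Stat2 had the widest gap, at 1.74, 1.86 and 1.51 FPKM in osteoclasts against 8.66, 9.39 and 8.60 FPKM in macrophages. That is 5.22-fold lower (-1.87 as a difference of log2(FPKM + 1), the scale of all log2 differences here, SE 0.11, adjusted p 1.17e-08). Jak3 was 3.16-fold lower (log2 difference -1.20, SE 0.08, adjusted p 2.82e-08), with 1.51, 1.47 and 1.61 FPKM in osteoclasts. Jak2, at 4.18, 3.79 and 4.37 FPKM, was 2.36-fold lower (log2 difference -1.07, SE 0.14, adjusted p 1.48e-05). Stat6, Stat5b and Stat5a were 1.99-fold, 1.92-fold and 1.78-fold lower, and Stat3 was 1.26-fold lower with the smallest called log2 difference, -0.30 (SE 0.06, adjusted p 7.24e-04). Jak1 stood at 62.8% of its macrophage level. After rescaling to TPM, which put the median gene at -0.38, the log2 differences of these 8 genes were larger, among them -0.73 for Stat3, -1.08 for Jak1, -1.11 for Stat5a, -1.30 for Stat5b and -1.86 for Jak3. Tyk2, which works with Jak1 at the interferon receptor, did not pass the test, with 6.65, 7.54 and 6.83 FPKM against 7.95, 7.74 and 7.52 FPKM. Its log2 difference was -0.13 (adjusted p 0.0595), with a 95% interval from -0.25 to -0.00. It was called lower after rescaling to TPM (log2 difference -0.54, adjusted p 1.63e-05), in voom (-0.15, 0.0447), without untreated osteoclast replicate 2 (-0.17, 0.0183) and without LPS-treated osteoclast replicate 1 (-0.13, 0.0351).

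**Figure D1:**
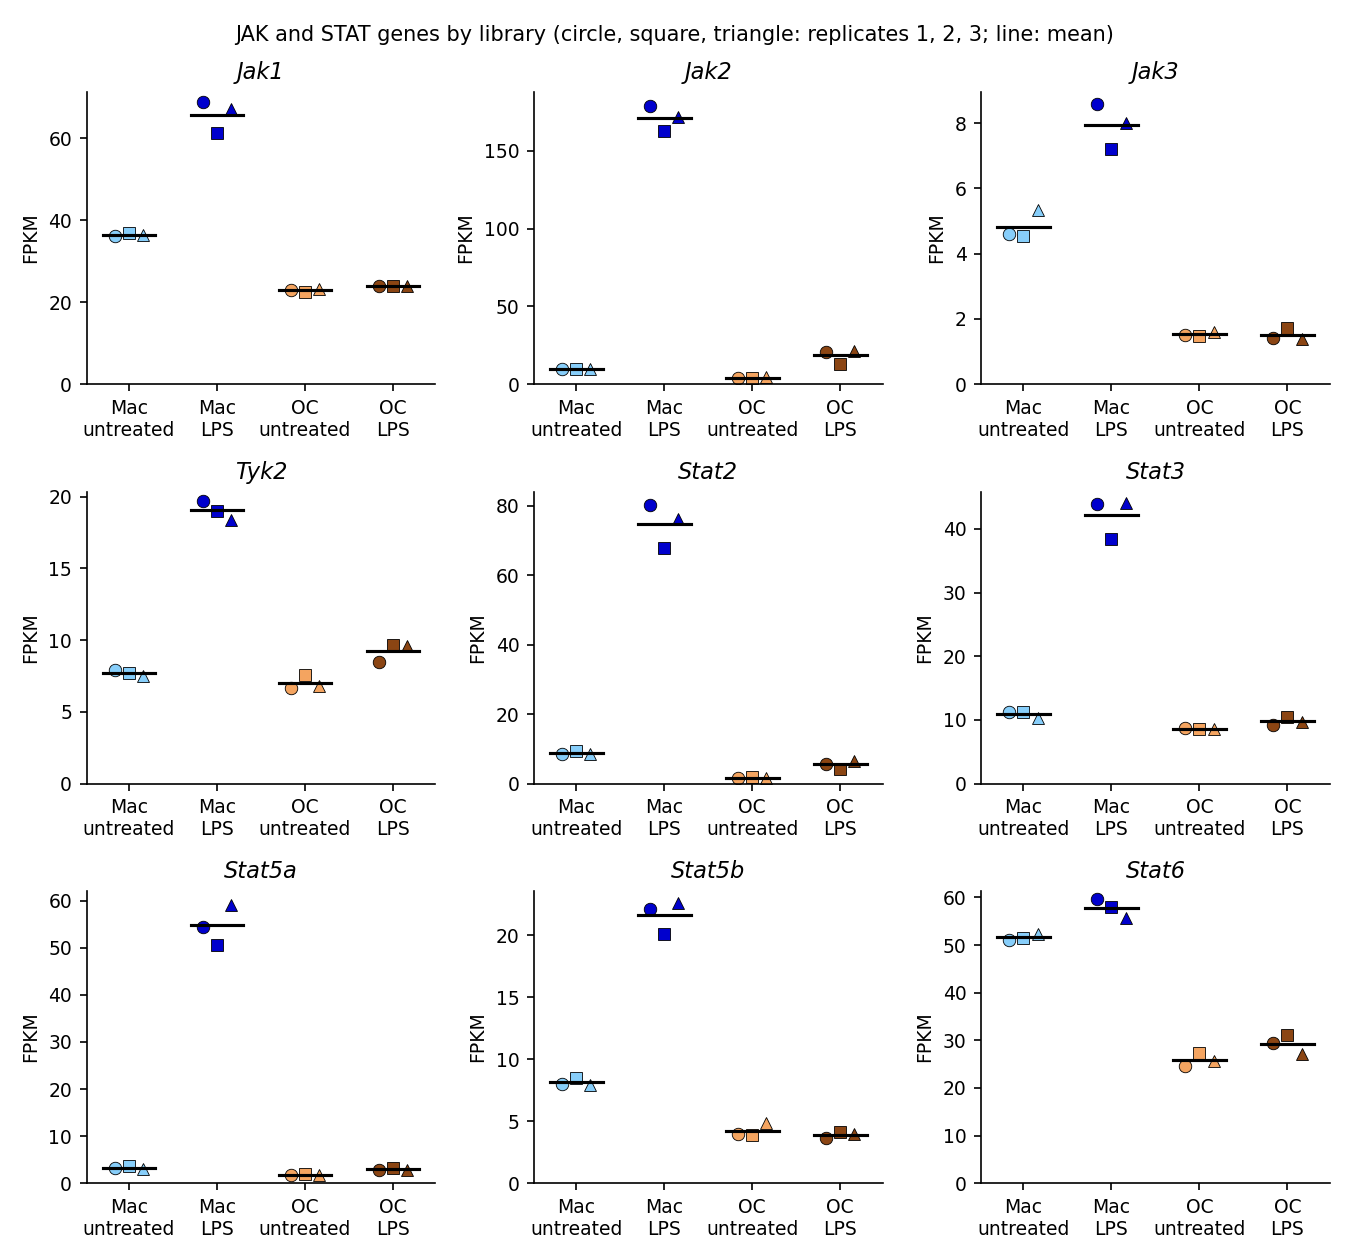
FPKM of each of the 9 genes (y axis, from 0, with its own range per gene) in every library of the 4 groups (x axis; Mac, macrophage; OC, osteoclast), with a line at the group mean. Jak2, Stat2 and Stat5a stand far higher in the 3 LPS-treated macrophage libraries than in all others, while Stat6 differs mainly between the cell types.

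LPS raised all 4 kinase genes in macrophages, Jak2 most of all and Jak3 not after rescaling to TPM. Of all genes tested 36.8% were called higher and 33.1% lower. The 3 untreated libraries held 9.97, 9.65 and 9.55 FPKM of Jak2 and the LPS-treated libraries 179, 163 and 172 FPKM. Jak2 thus passed Jak1 and became the most abundant member, 17.6-fold higher (log2 difference 4.00, SE 0.14, adjusted p 9.33e-11). Only 139 of the genes tested, or 1.23%, had a higher log2 difference. Tyk2 rose 2.46-fold to 19.7, 19.0 and 18.4 FPKM (log2 difference 1.20, SE 0.06, adjusted p 1.86e-09). Jak1 rose 1.80-fold to 69.0, 61.3 and 67.1 FPKM (0.83, SE 0.04, adjusted p 3.45e-09). Jak3 rose 1.64-fold to between 7.21 and 8.59 FPKM (0.62, SE 0.08, adjusted p 2.01e-05). Each of the 4 kinases was higher in every treated than in every untreated library, and libraries were apart in this way or the opposite one for 74.0% of all genes.

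All 5 STAT genes were also called higher with LPS in macrophages, with very unequal sizes, although Stat6 was lower after rescaling to TPM or quantile normalization. Stat5a, one of a pair of near-identical factors of the GM-CSF and interleukin 3 response, went from 3.32, 3.58 and 2.91 FPKM to 54.5, 50.7 and 59.2 FPKM. It was 16.8-fold higher (log2 difference 3.71, SE 0.07, adjusted p 8.44e-13). Its partner Stat5b went from 8.02, 8.50 and 7.90 FPKM to 22.1, 20.1 and 22.6 FPKM, 2.66-fold higher (1.31, SE 0.07, adjusted p 8.40e-09). The order of the pair therefore turned: Stat5a was at 0.368 to 0.422 of Stat5b without LPS and at 2.46 to 2.63 of it with LPS. Stat2, the ISGF3 subunit, went from under 10 FPKM to 80.1, 67.8 and 76.2 FPKM, 8.41-fold higher (2.93, SE 0.11, adjusted p 2.71e-10). Stat3, which carries the interleukin 6 and 10 signals, went from 11.2, 11.2 and 10.3 FPKM to 43.9, 38.4 and 44.1 FPKM, 3.87-fold higher (1.86, SE 0.06, adjusted p 6.66e-11). Stat6 moved least, to 59.6, 57.9 and 55.6 FPKM, 1.12-fold higher (0.16, SE 0.05, adjusted p 0.0183).

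In all, 9 of the 9 members were called higher and 0 lower, and treated and untreated libraries were apart for all 9. The sizes depend on how libraries are scaled, because the deposited FPKM columns do not share a common sum. After rescaling to TPM the median log2 difference of all genes moved from 0.02 to -0.55. Jak1 then had a log2 difference of 0.20 (adjusted p 0.00111), Jak3 one of 0.07 that was not called (adjusted p 0.554), and Stat6 was called lower at -0.48 (adjusted p 5.50e-06). Relative to the median gene, these 3 stood at 0.76, 0.62 and 0.07. Quantile normalization, with the median gene at -0.14, gave 0.19 for Jak1 (adjusted p 0.00133) and -0.49 for Stat6 (adjusted p 1.64e-06), or 0.32 and -0.36 relative to the median gene. Stat6 was thus above the median gene after rescaling to TPM and below it after quantile normalization. Jak2, Tyk2, Stat2, Stat3, Stat5a and Stat5b were called higher under both, at 3.46, 0.63, 2.39, 1.28, 3.32 and 0.74 after rescaling to TPM. Without untreated replicate 1 or LPS-treated replicate 1, Stat6 was no longer called (adjusted p 0.0528 and 0.0647).

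**Figure D2:**
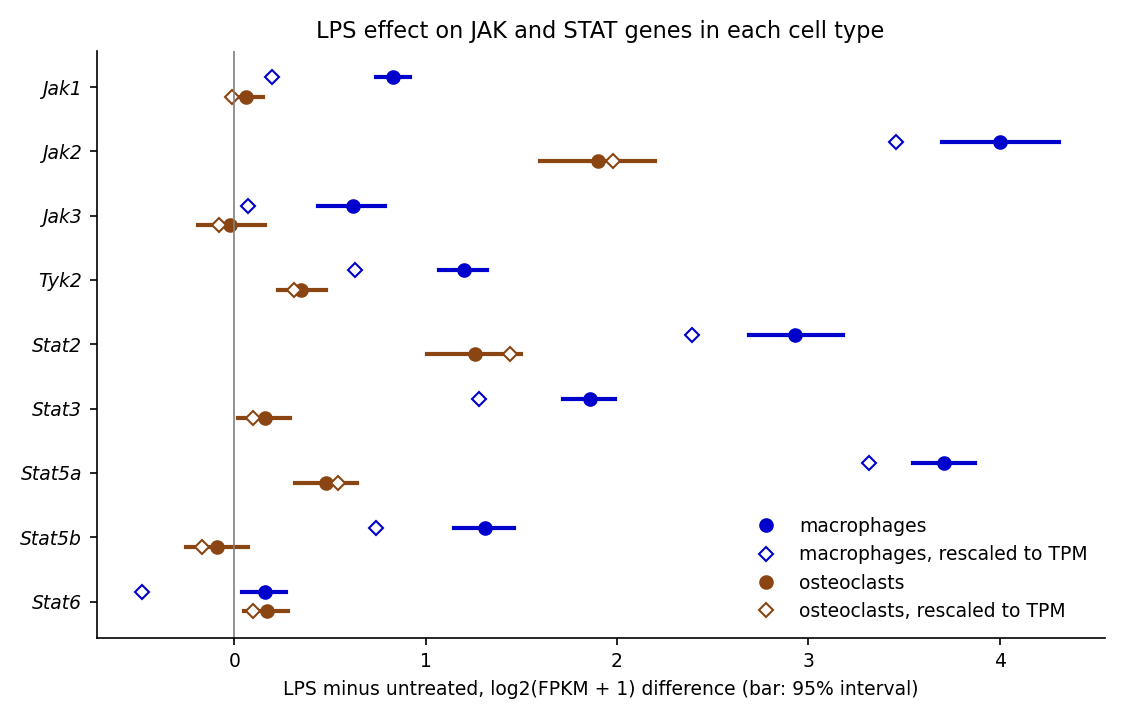
LPS effect on each gene as a difference of log2(FPKM + 1), LPS-treated minus untreated (x axis), in macrophages (blue) and osteoclasts (brown); bars are 95% intervals and open diamonds the same effect after rescaling to TPM. Jak2, Stat2 and Stat5a lie to the right in macrophages, from 2.93 to 4.00, and 6 of the 9 osteoclast effects lie under 0.40.

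In osteoclasts LPS raised 2 of the 4 kinases, Jak2 and Tyk2, while 11.1% of all genes were called higher and 6.59% lower. Jak2 went from 4.18, 3.79 and 4.37 FPKM to 20.8, 13.1 and 21.5 FPKM, 4.49-fold higher (log2 difference 1.90, SE 0.14, adjusted p 1.33e-06). As in macrophages it was among the genes with the largest effects, with 101 genes (0.891%) above it. Tyk2 went to 8.51, 9.63 and 9.57 FPKM, 1.32-fold higher (0.35, SE 0.06, adjusted p 9.68e-04). Jak1 and Jak3 were not called. Jak1 stood at 22.9, 22.6 and 23.2 FPKM without and 24.0, 23.9 and 24.0 FPKM with LPS, a log2 difference of 0.06 with a 95% interval from -0.03 to 0.15 (adjusted p 0.353). Jak3 with LPS stood at 1.40, 1.73 and 1.37 FPKM, on both sides of the untreated values, and its interval ran from -0.19 to 0.16 (adjusted p 0.901).

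Among the STAT genes Stat2, Stat5a and Stat6 were called higher with LPS in osteoclasts. Stat2 reached 5.61, 4.30 and 6.66 FPKM, 3.25-fold higher than without LPS (log2 difference 1.26, SE 0.11, adjusted p 8.56e-06). Even so, the highest of these libraries stayed under the lowest untreated macrophage library, at 8.60 FPKM. Stat5a went from 1.75, 1.96 and 1.80 FPKM to 2.83, 3.20 and 2.85 FPKM, 1.61-fold higher (0.48, SE 0.07, adjusted p 6.10e-04). Stat6 went from 24.7, 27.4 and 25.7 FPKM to 29.4, 31.1 and 27.2 FPKM, with overlapping groups (log2 difference 0.17, SE 0.05, adjusted p 0.0496). The Stat6 call was lost without the filter (adjusted p 0.101), after rescaling to TPM (0.253), after quantile normalization (0.24) and in 10 of 12 fits that left out 1 library, at adjusted p from 0.0536 to 0.162. Stat3 was at 8.69, 8.63 and 8.62 FPKM without and 9.18, 10.5 and 9.71 FPKM with LPS, apart but not called (log2 difference 0.16, 95% interval 0.02 to 0.29, adjusted p 0.1). Stat5b was at 3.93, 3.92 and 4.84 FPKM without and 3.65, 4.12 and 3.95 FPKM with LPS, and its interval ran from -0.25 to 0.07 (adjusted p 0.451). In all, 5 of the 9 members were called higher and 0 lower. Treated and untreated libraries were apart for 6 of the 9 members, against 34.0% of all genes.

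Among the LPS-treated osteoclast libraries, the one with the least Jak2 and Stat2 RNA also held the least Adgre1, the macrophage marker F4/80. Adgre1 stood at 37.0, 31.2 and 31.3 FPKM in the untreated and at 73.1, 42.5 and 70.9 FPKM in the LPS-treated osteoclast replicates. Replicate 2 of the LPS-treated osteoclasts was this library, and it did not have the lowest Stat5a. It was also the lowest of its group for 4 of the other 5 macrophage markers, with Mrc1 at 3.35, 1.62 and 3.41 FPKM, Fcgr1 at 1.68, 0.927 and 1.88 FPKM, Mertk at 1.42, 1.15 and 1.91 FPKM and Cx3cr1 at 0.348, 0.130 and 0.292 FPKM in replicates 1 to 3. Csf1r was highest in it, at 286, 304 and 289 FPKM. Between replicates 1 and 3, replicate 3 held more Jak2, Stat2, Mrc1, Fcgr1 and Mertk and less Adgre1 and Cx3cr1. The ratio of Jak2 to Adgre1 was 0.285, 0.309 and 0.303 in the 3 LPS-treated libraries, closer together than Jak2 itself, and 0.113 to 0.140 in the untreated ones. The ratio of Stat2 to Adgre1 was 0.0767, 0.101 and 0.0939, highest in replicate 2. Of 35 genes of the pathway lists called higher with LPS in osteoclasts, 28 were lowest in replicate 2 of the treated libraries, among them Socs3 at 15.3, 8.06 and 17.1 FPKM, Ifit1 at 134, 79.4 and 150 FPKM and Il27 at 19.9, 13.4 and 21.2 FPKM. The share over all genes was not counted, so this may not be particular to the pathway. Replicate 2 also held the fewest recovered reads of all libraries, 14875560. Adgre1 itself had group means of 428 FPKM without and 670 FPKM with LPS in macrophages. Of the 6 macrophage markers, 4 reached 1 FPKM in all osteoclast libraries of each group, and their sum was 346 to 353 FPKM without and 350 to 367 FPKM with LPS. Mrc1, Fcgr1 and Cx3cr1 in LPS-treated osteoclasts were at 0.814%, 0.931% and 0.679% of their mean in LPS-treated macrophages, and Adgre1 and Mertk at 9.28% and 7.01%. On the same measure Jak2 was at 10.8%, Stat2 at 7.39% and Stat5a at 5.40%, and Jak1, Tyk2 and Stat6 at 36.4%, 48.5% and 50.7%. The part of remaining macrophages in these values was not tested. Without that replicate the log2 differences were 2.12 for Jak2, 1.40 for Stat2 and 0.44 for Stat5a, and the Stat6 call was lost.

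**Figure D3:**
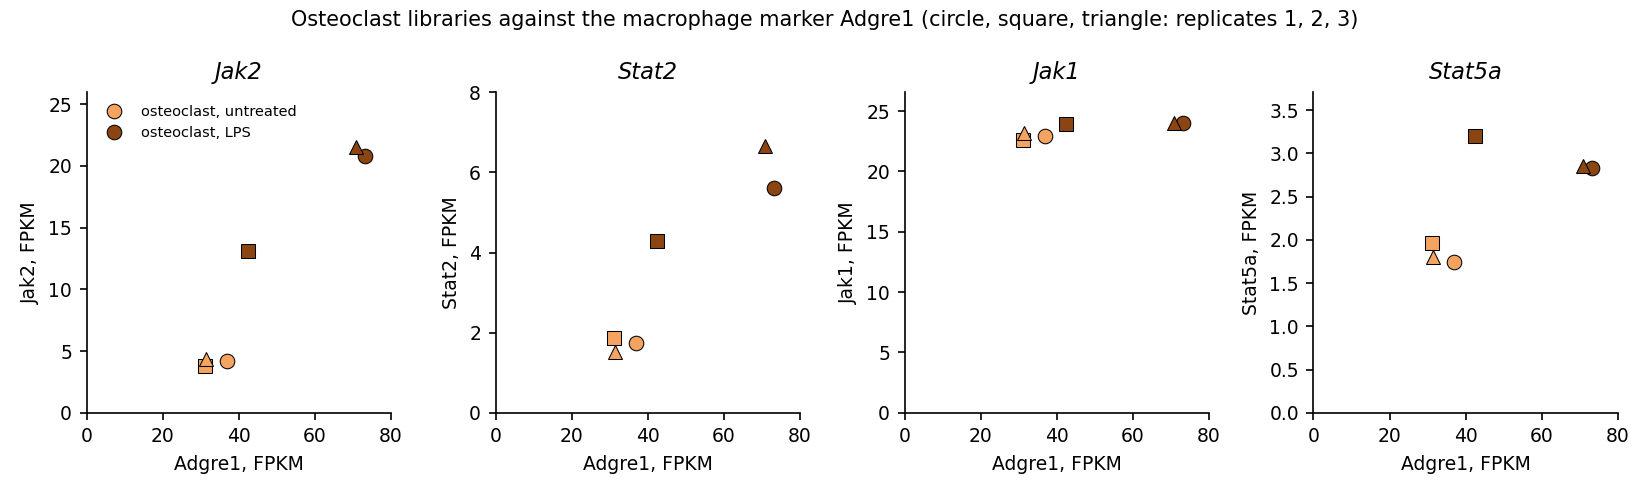
FPKM of Jak2, Stat2, Jak1 and Stat5a (y axes, from 0) against FPKM of the macrophage marker Adgre1 (x axis) in the 3 untreated and 3 LPS-treated osteoclast libraries. Replicate 2 of the LPS-treated group (square) has the lowest Adgre1, Jak2 and Stat2 of that group, whereas all 6 libraries lie between 22.6 and 24.0 FPKM for Jak1.

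The LPS effect was smaller in osteoclasts than in macrophages for 8 of the 9 genes, with Jak3 not called on the TPM scale. The test was that of the interaction, in which the macrophage effect is subtracted from the osteoclast effect. It was called below 0 for 4 of 4 kinases and 4 of 5 STAT genes and above 0 for 0 of the 9. Over all genes 30.0% were called below 0 and 26.6% above 0. Stat5a had the largest difference, -3.23 (SE 0.10, adjusted p 2.66e-10), and only 0.812% of the genes tested lay below it. Jak2 followed at -2.10 (SE 0.19, adjusted p 1.90e-06), then Stat3 at -1.70 (SE 0.09, adjusted p 1.11e-08) and Stat2 at -1.68 (SE 0.16, adjusted p 2.48e-06). As log2 ratios of means, which do not depend on the added 1 FPKM, these 4 were -3.38, -1.97, -1.78 and -1.37. Stat5b was at -1.40, Tyk2 at -0.84, Jak1 at -0.77 and Jak3 at -0.64, all called. Stat6 was not called, at 0.01 (SE 0.07, adjusted p 0.933), with a 95% interval from -0.15 to 0.17. After rescaling to TPM, which put the median gene at 0.51, Jak3 was not called (-0.15, adjusted p 0.361), Jak1 and Tyk2 were at -0.21 and -0.32, Stat2 and Stat5b at -0.95 and -0.91, and Stat6 was called above 0 at 0.58 (adjusted p 4.12e-05). Relative to the median gene Stat6 then stood at 0.07 and Jak3 at -0.66. Quantile normalization, with the median gene at 0.09, also put Stat6 above 0 at 0.58 (adjusted p 1.60e-05), or 0.49 relative to the median gene, and Jak1 at -0.20 (adjusted p 0.0119). For each count of 0 members called in a direction, 0 were also called by voom and 0 reached an unadjusted p under 0.05.

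With LPS, all 9 members were lower in osteoclasts than in macrophages, where 43.0% of all genes were called lower and 40.9% higher. This comparison shares its libraries with the LPS effects, so the values restate them from the other side. Stat5a was 18.5-fold lower, Stat2 13.5-fold and Jak2 9.27-fold lower, with log2 differences of -3.82, -3.55 and -3.17. Stat5b, Jak3 and Stat3 were 5.53-fold, 5.29-fold and 4.31-fold lower. Jak1, Tyk2 and Stat6 were nearest, at 2.75-fold, 2.06-fold and 1.97-fold lower. Stat6 had a log2 difference of -0.96, and of -0.63 after quantile normalization.

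The make-up of each family within a library does not depend on scaling by 1 factor per library, as in the rescaling to TPM. Quantile normalization is not such a scaling and can change it. Jak1 held 62.1% of the summed FPKM of the 4 kinases in untreated macrophages and 64.4% in untreated osteoclasts (means of 3 libraries). With LPS in macrophages Jak2 went from 16.5% to 64.9% of the kinase sum and Jak1 to 24.9%, while the sum itself went from 58.8 to 264 FPKM. In osteoclasts Jak2 went from 11.6% to 34.4%, with libraries between 27.1% and 38.1%, and Jak1 remained the larger at 45.3%. Accordingly the ratio of Jak2 to Jak1 was 2.57 to 2.66 in LPS-treated macrophages and 0.866, 0.549 and 0.896 in LPS-treated osteoclasts. Tyk2 held a larger share in osteoclasts than in macrophages, 19.7% against 13.2% without LPS and 17.5% against 7.22% with it.

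Among the STAT genes Stat6 held 62.3% of the sum in untreated macrophages and 61.2% in untreated osteoclasts. LPS took it to 23.0% in macrophages, where Stat2 held 29.7%, Stat5a 21.8%, Stat3 16.8% and Stat5b 8.61%. In osteoclasts Stat6 still held 56.8% after LPS, and Stat2 went from 4.02% to 10.8%. Stat2 and its partner Irf9 differed in this respect. The ratio of Stat2 to Irf9 was 1.06 to 1.14 in untreated and 2.30 to 2.74 in LPS-treated macrophages, but 0.953 to 1.03 in untreated and 0.617 to 0.910 in LPS-treated osteoclasts.

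**Figure D4:**
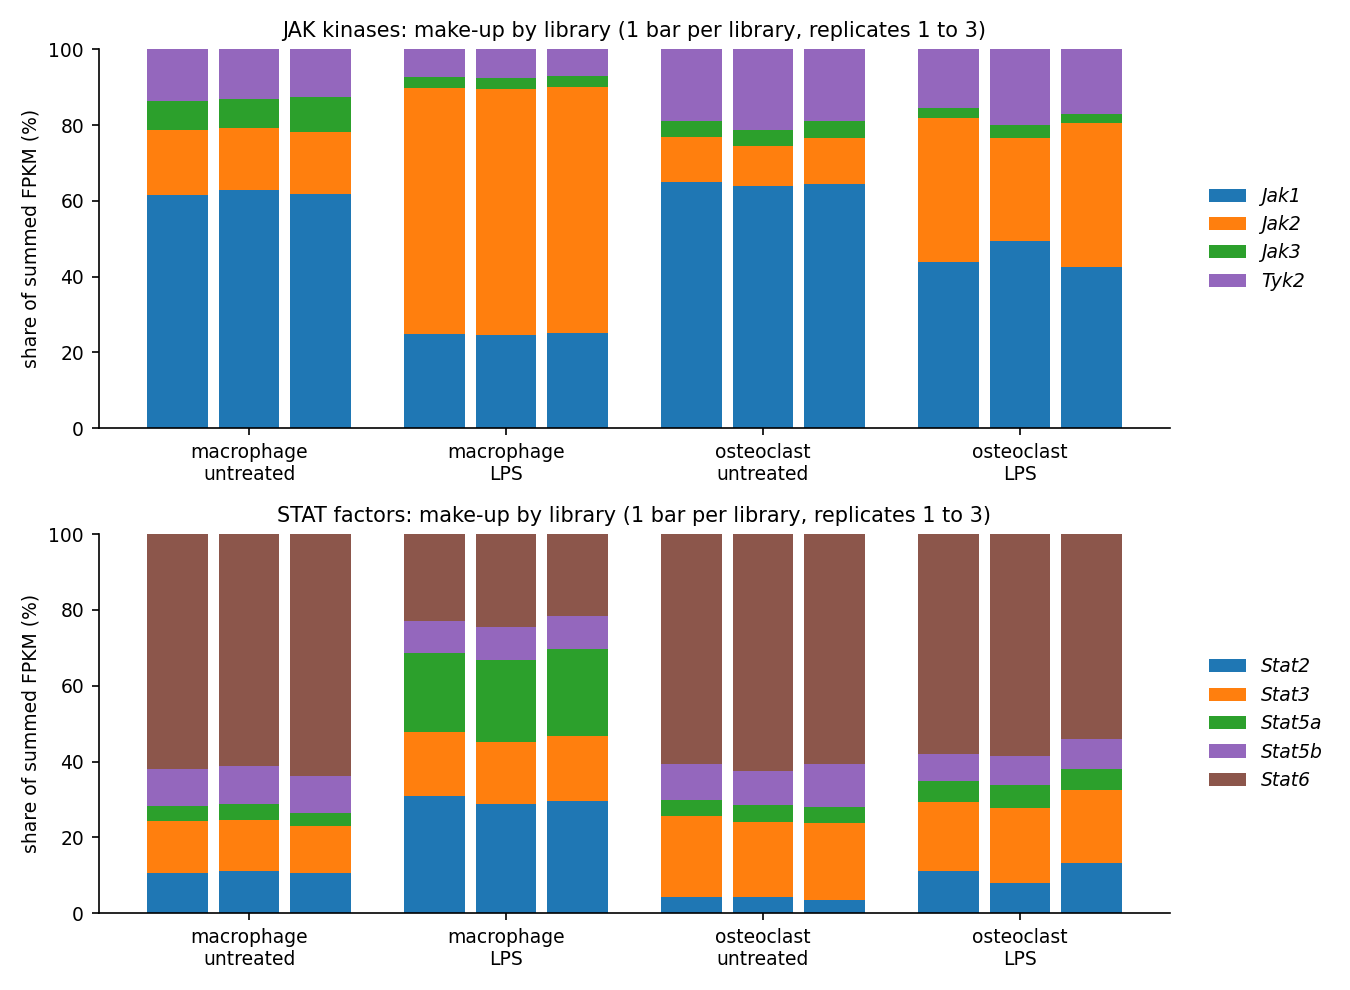
Share of each gene in the summed FPKM (y axis, percent) of the 4 JAK genes (top) and the 5 STAT genes (bottom), with 1 bar per library in replicate order within each group (x axis). Jak2 and the STAT genes other than Stat6 fill most of the bars of LPS-treated macrophages, and Jak1 and Stat6 fill the largest part of the osteoclast bars.

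The order of levels shows the same shift. With LPS in macrophages it ran from Jak2 through Stat2 and Jak1, which overlapped, then Stat6 and Stat5a, which also overlapped, to Stat3, Stat5b, Tyk2 and Jak3. In untreated osteoclasts it ran from Stat6 and Jak1 through Stat3 and Tyk2 to Stat5b and Jak2, which overlapped, and Stat5a, Stat2 and Jak3, of which each overlapped with the next. With LPS in osteoclasts Jak2 moved up to a place after Stat6 and Jak1, followed by Stat3 and Tyk2, which overlapped, then Stat2, Stat5b, Stat5a and Jak3.

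For each member the 3 genes with the most similar pattern were found by the root mean square (RMS) difference of centred log2(FPKM + 1) values over the 12 libraries. This is a description in which all points share the 4 groups. The added 1 FPKM flattens changes of low genes, so a low gene can lie near a member whose fold changes are unlike its own. Nearest to Jak2, whose own values spanned 5.23 on the log2 scale, were Parp9 (RMS 0.12), Trim21 (0.21) and Fas (0.21). Nearest to Stat2 were Trim30a (0.07), Oas2 (0.09) and Trim30d (0.12). Stat5a had no gene as close, and its nearest were Lacc1 (0.18), Arid5a (0.20) and Slc28a2 (0.22). Stat3 was nearest to D730005E14Rik (0.07), Irf2 (0.08) and Ythdf1 (0.08), and Stat5b to Ankrd44 (0.08), Pla2g4a (0.11) and Arid1a (0.11). Jak1 was nearest to Lrch3 (0.04), Tyk2 to Ppfia3 (0.07) and Gspt1 (0.07), Jak3 to Tpm3 (0.08) and Stat6 to Prkar1a (0.06) and Cdk17 (0.06). D730005E14Rik, near Stat3, and Ppfia3, near Tyk2, were such low genes. With LPS in macrophages D730005E14Rik went from a mean of 0.298 to 3.47 FPKM and Ppfia3 from 0.0877 to 1.42 FPKM. In osteoclasts D730005E14Rik went from 0.0160 to 0.188 FPKM, whereas Stat3 was not called. The members were not among each other's nearest genes. Stat2 and Stat5a, at an RMS of 0.487, were nearer to each other than Jak2 was to either, at 0.541 and 0.551.

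The other genes of the pathway were described by lists, with the calls of their tested genes and the median log2 difference of all their genes, tested or not. Over all genes tested 36.8% were called higher and 33.1% lower with LPS in macrophages and 11.1% and 6.59% in osteoclasts, with medians of 0.02 and 0.01. Some list genes passed the filter only with the help of LPS-treated libraries, so that a call of these was favoured by the filter. They were 1 of the receptor chains (Il15ra), 6 of the ligands (named below) and 3 of the inhibitors (Socs1, Cish and Usp18). The others were 2 of the ISGF3 targets (Mx2 and Ifi44), 1 of the STAT3 targets (Nfil3) and 2 of the STAT6 targets (Ccl17 and Ccl22). Of 23 cytokine receptor chains 20 were tested, and in macrophages LPS raised 14 and lowered 5, with a median of 0.41. After rescaling to TPM 8 were higher and 11 lower. The chains with the largest effects were Il15ra, which takes up interleukin 15, with 0.475 to 0.505 FPKM without and 18.9 to 19.9 FPKM with LPS, and Il10ra, the ligand-binding chain for interleukin 10, with 26.8 to 30.9 and 210 to 230 FPKM. Il4ra, the chain upstream of Stat6, went from 48.6 to 52.3 FPKM up to 213 to 270 FPKM (log2 difference 2.26, adjusted p 1.47e-10). Il2rg, the common gamma chain that Jak3 binds, rose by 2.23 on the log2 scale (adjusted p 2.08e-09). Both interferon receptor chains rose, Ifnar1 by 1.04 (adjusted p 7.14e-11) and Ifnar2 by 1.07 (adjusted p 1.20e-09). Lower with LPS were Il6ra (-0.63), Il6st (-0.47), Lifr (-0.28), Il21r (-0.83) and Il7r (-0.89). Csf2rb and Csf2rb2, the receptor chains that bind Jak2, share sequence, and their values are uncertain.

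In osteoclasts 4 receptor chains were called higher and 1 lower with LPS, with a median of 0.03. The highest was Il10ra, at 1.44 to 1.61 FPKM without and 4.49 to 7.48 FPKM with LPS (log2 difference 1.53, adjusted p 6.60e-06), followed by Il15ra (0.93, adjusted p 1.33e-05). The lower chain was Il7r, whose call was lost without LPS-treated replicate 2 and without the filter. Il4ra stood at 4.99 to 5.25 FPKM without and 5.51 to 6.55 FPKM with LPS, and was not called (0.19, adjusted p 0.141). Without LPS 14 of the 20 chains were lower in osteoclasts and 5 higher, where 39.0% and 38.8% of all genes tested were. Il13ra1, the chain that joins Il4ra, was higher in osteoclasts by 1.99 (adjusted p 1.64e-09), and Csf3r, the G-CSF receptor, was lower by -2.46 (adjusted p 6.26e-10).

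Of 14 cytokine ligands 9 were tested. All 9 were called higher with LPS in macrophages, but 6 of them (Ifnb1, Il6, Il10, Il27, Csf3 and Il12b) passed the filter through LPS-treated libraries, so this count was set in part by the filter. The median over all 14 was 1.68, and the 5 not tested, Csf2, Il12a, Il23a, Il7 and Il11, had log2 differences from 0.08 to 0.57 and stayed under 1 FPKM. Ifnb1, the interferon that signals through Tyk2 and Jak1, was at 0 in all untreated libraries and at 54.0 to 72.6 FPKM in LPS-treated macrophages, and at 0.539 to 0.950 FPKM in LPS-treated osteoclasts. Il6, a Stat3 cytokine, reached 127 to 140 FPKM in macrophages and 3.45 to 5.91 FPKM in osteoclasts. Il10, the other main Stat3 cytokine, reached 80.8 to 83.5 FPKM in macrophages and 1.34 to 2.12 FPKM in osteoclasts. In osteoclasts 6 of the 9 were called higher, and the median over all 14 was 0.24. Lif, a ligand of the gp130 family, differed from the rest, with 24.5 to 25.9 FPKM in untreated osteoclasts against 0.268 to 0.754 FPKM in untreated macrophages (log2 difference 4.15, adjusted p 1.75e-11).

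Of 19 inhibitors and phosphatases 18 were tested, and LPS raised 10 and lowered 4 in macrophages, with a median of 0.39, while 10 were lower after rescaling to TPM. Socs3, which blocks signalling at gp130, had the largest log2 difference of the list, from 1.25, 1.28 and 1.01 FPKM to between 871 and 907 FPKM (log2 difference 8.67, adjusted p 2.42e-12). Socs1, which binds JAKs directly, went from 0.102 to 0.223 FPKM up to 178 to 199 FPKM (7.32, adjusted p 1.95e-13). As a ratio of means, without the added 1 FPKM, Socs1 had the larger change, 1042-fold against 750-fold for Socs3. The untreated mean of Socs1 rested on 15, 7 and 14 recovered reads and that of Socs3 on 84, 87 and 65. The order of these 2 ratios is therefore uncertain. The promoter stretch of Socs1 is the one printed above. Usp18, which blocks the interferon receptor, and Cish, a known Stat5 target, rose by 6.06 and 4.45 on the log2 scale (adjusted p 1.19e-11 and 6.03e-14). Socs1, Usp18 and Cish passed the filter through LPS-treated libraries, so their calls were favoured by the filter. Without the filter 10 of 19 genes were called higher and 4 lower in macrophages. Sh2b3, an adaptor that restrains Jak2, was lower, at 46.2 to 49.5 FPKM without and 12.4 to 12.8 FPKM with LPS (-1.85, adjusted p 7.49e-12). In osteoclasts 5 were higher and 3 lower. Socs3 reached 8.06 to 17.1 FPKM there (3.58, adjusted p 9.59e-08) and Socs1 4.08 to 6.39 FPKM (2.33, adjusted p 5.31e-08). Cish did not exceed 0.128 FPKM in any osteoclast library (0.12, adjusted p 0.165).

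The 14 ISGF3 targets and partner were all called higher with LPS in both cell types, with medians of 5.12 in macrophages and 2.53 in osteoclasts. Without the filter 12 of the 14 were called higher in osteoclasts. Irf9, the DNA-binding partner of Stat2, went from 8.13 to 8.24 FPKM up to 28.5 to 29.4 FPKM in macrophages and from 1.58 to 1.94 FPKM up to 6.16 to 7.81 FPKM in osteoclasts. Its log2 differences were 1.71 (adjusted p 5.15e-10) and 1.54 (adjusted p 2.68e-08), and its interaction was not called (-0.17, adjusted p 0.172). As a ratio of means, without the added 1 FPKM, the rise of Irf9 was the larger in osteoclasts. Ifit1, an antiviral RNA-binding protein, rose by 9.69 in macrophages and 6.30 in osteoclasts. Without LPS, 13 of the 14 were lower in osteoclasts, against 39.0% of all genes tested, with a median of -1.64, and Irf9 is among them. The interaction was called below 0 for 13 of the 14, against 30.0% of all genes tested, and for 7 in voom.

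Genes listed as STAT3, STAT5 and STAT6 targets, which other factors also regulate, did not move as single blocks. Of 7 STAT3 targets 6 rose in macrophages, among them Bcl3 (log2 difference 3.54), Nfil3 (4.59) and Etv3 (3.09), a transcriptional repressor. The exception was Myc, a growth regulator, which fell from 22.8 to 25.2 FPKM to 1.30 to 2.25 FPKM (-3.14, adjusted p 1.11e-10). In osteoclasts 4 rose, of which Bcl3 rose most (1.23, adjusted p 1.73e-07), and Myc was not called (0.16, adjusted p 0.353). Of 4 STAT5 targets Pim1, a kinase, and Ccnd2 rose in macrophages by 5.40 and 3.11, while the cyclin gene Ccnd1 and the survival gene Bcl2l1 fell by 1.84 and 0.48. In osteoclasts Pim1 rose (2.20, adjusted p 1.50e-07) and Ccnd1 and Bcl2l1 fell. Of 8 STAT6 targets 4 were tested, and Arg1, Retnla, Chil3 and Pdcd1lg2 were not. The chemokine genes Ccl17 and Ccl22 rose in macrophages, but both passed the filter through LPS-treated libraries, which favoured these calls. Clec10a rose too (adjusted p 0.0441), though it was not called on the TPM scale or by voom. Without the filter 3 of 7 fitted genes were called higher and 1 lower in macrophages. The median over all 8 was 0.26 in macrophages and -0.00 in osteoclasts. Ccl22 was the exception in osteoclasts, with 20.1 to 27.3 FPKM after LPS beside 19.5 to 26.4 FPKM in LPS-treated macrophages.

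**Figure D5:**
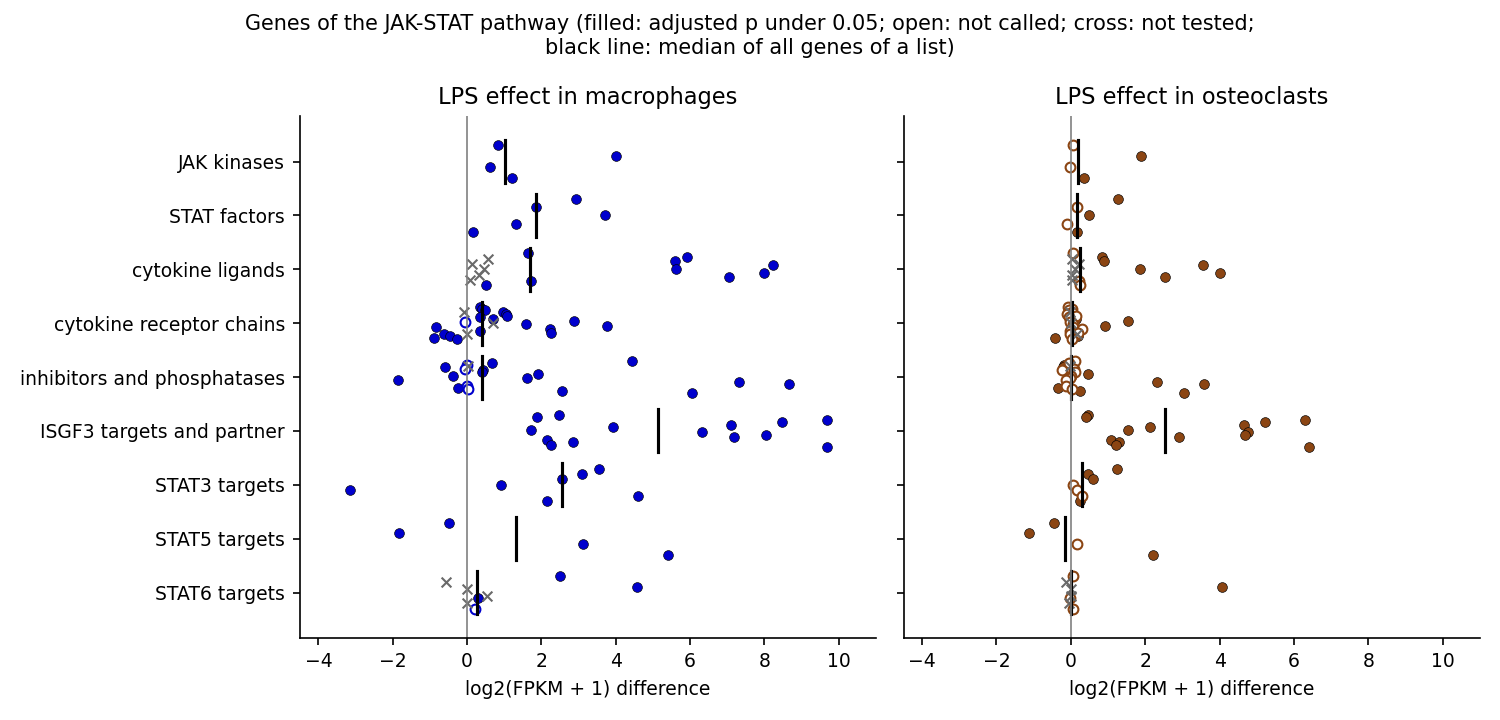
LPS effect (x axis, difference of log2(FPKM + 1)) on each gene of the JAK and STAT families and of 7 pathway lists (y axis) in macrophages (left) and osteoclasts (right); filled points passed an adjusted p under 0.05, open points did not, crosses were not tested, and a black line marks the median of all genes of a list. ISGF3 targets lie at a median of 5.12 in macrophages and 2.53 in osteoclasts, and cytokine ligands at 1.68 and 0.24.

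The positions of the members bear on how well their reads can be told apart. On build GRCm38 with GENCODE M21 gene models, Stat5b (ENSMUSG00000020919, chromosome 11, 100780731 to 100850724, minus strand), Stat5a (ENSMUSG00000004043, chromosome 11, 100859351 to 100885169, plus strand) and Stat3 (ENSMUSG00000004040, chromosome 11, 100885098 to 100939540, minus strand) lie next to each other. Stat3 and Stat5a overlap by 72 exon bases on opposite strands. Stat5a and Stat5b are alike in sequence, and 8.21% of the 50-base windows of Stat5a transcripts and 11% of those of Stat5b occur in the other gene, or 2.21% and 3.16% at 150 bases. Reads from such windows are uncertain between the pair. Stat2 (ENSMUSG00000040033, chromosome 10, 128270559 to 128292849) and Jak2 (ENSMUSG00000024789, chromosome 19, 29251828 to 29313080) share no exon sequence with another gene. Jak3 (ENSMUSG00000031805, chromosome 8, 71676296 to 71690575) shares 404 exon bases with Insl3 on the same strand, which reached at most 1.63 FPKM. Tyk2 (ENSMUSG00000032175, chromosome 9, 21104068 to 21131243) shares 554 exon bases with an antisense gene that reached at most 0.0789 FPKM. Jak1 (ENSMUSG00000028530, chromosome 4, 101152367 to 101265282) and Stat6 (ENSMUSG00000002147, chromosome 10, 127642986 to 127660957) share 4 and 40 exon bases with genes on the opposite strand.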

How the data were processed

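RNA of 12 libraries (NEBNext Ultra RNA kit, per the labels' protocols) was analysed from the FPKM values that the authors deposited for 54532 Ensembl genes. The submitters' processing notes name fastp, STAR, featureCounts, DESeq2 and build mm10, with no versions. The annotation, the FPKM denominator and the use of strand are not given in the sources used here. The deposited FPKM columns summed to between 255852 and 408994. With merged exon lengths of GENCODE M21 (GRCm38), FPKM were whole multiples of a step per library, within 0.02 of a whole read, for 25015 of 25854 genes above 0 (96.8%), which gave 14875560 to 19278653 reads per library; genes without whole reads, such as Pim1, have no value in voom.

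The 11335 genes that reached 1 FPKM in 3 or more libraries were tested with limma 3.58.1 in R 4.3.3, with a variance trend, on log2(FPKM + 1), in 1 fit of 4 group means. That scale understates changes of low genes. Two-sided p-values were adjusted over these genes (Benjamini-Hochberg), and genes under 0.05 were called. The design assumed no covariate. Groups come from the sample titles. The planned comparison of Stat5a and Stat5b proteins was replaced by one of their transcripts, and promoters come from RefSeq (GRCm38.p6). The fit was tested on simulated data. The text names all 9 members, genes of 7 pathway lists chosen by size or role, and, for likeness, the 3 nearest genes. The members, lists and markers were chosen with earlier results of these data known. Alternatives were a pseudocount of 0.1, no filter, rescaling to TPM, quantile normalization, voom on the recovered reads, the replicate number as a block and each library left out. Counts of lists without LPS-treated osteoclast replicate 2 were added after seeing the data.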

Additional observations from a re-analysis of the deposited data

Results flagged for a closer look

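For 8 of the 9 genes macrophages and osteoclasts differed in their response to LPS, by the interaction test in limma, which called 56.6% of all 11335 genes tested. On the log2(FPKM + 1) scale, the effect in osteoclasts minus that in macrophages was -0.77 for Jak1, -2.10 for Jak2, -0.64 for Jak3 and -0.84 for Tyk2. It was -1.68 for Stat2, -1.70 for Stat3, -3.23 for Stat5a and -1.40 for Stat5b. In each case the effect above 0 in macrophages was larger than that in osteoclasts. The difference for Jak3 did not pass the test after rescaling to TPM.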

How the results depend on the processing

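Of 810 combinations of a member's comparison and an alternative, 776 kept their direction and their side of the threshold, 11 changed direction, 17 lost and 6 gained a call. Stat6 in macrophages changed direction on the TPM scale (-0.48) and with quantile normalization (-0.49), and Jak1 in osteoclasts, not called, did so under both (-0.01). With libraries left out in turn, Jak3 in osteoclasts ranged from -0.08 to 0.02 and the Stat6 interaction from -0.04 to 0.06, neither called. The cause was not tested. Other lost or gained calls of members, among them the Stat6 interaction on the TPM scale and with quantile normalization (0.58 in both), are given beside the results. Called genes with LPS in macrophages numbered 7921, of which 52.6% were higher, 18.5% on the TPM scale and 37.0% with quantile normalization. In osteoclasts 62.8% of 2008 calls were higher, against 43.5% and 38.5%. Without LPS the share was 49.9% of 8822 calls and 29.9% after rescaling to TPM, and for the interaction 47.0% of 6413, 82.0% and 59.9%. Each of these totals, and the 9509 calls with LPS, stayed within 1.5 times under every alternative. Of 630 counts of list genes called, 47 moved by more than 1.5 times.

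No paired design is stated. Deviations of libraries with the same replicate number correlated between -0.07 and 0.10, so the numbers were not taken to pair the libraries. With the replicate number as a block 7914, 1930, 8787, 9512 and 6422 genes were called in the 5 comparisons, and no member changed its call. The members rested on 133 or more recovered reads per library, and how far depth or the number of libraries limits their precision was not tested.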
